A study of Oncorhynchus mykiss with 12 samples.

Results

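Cytochrome P450 genes were followed in the liver of rainbow trout (Oncorhynchus mykiss) after 1 month of moderate hypoxia. A gene counted as a member if its description in the deposited table began with cytochrome P450, or if its symbol was of family CYP1, CYP2, CYP3, CYP4 or CYP26. The bile acid and sterol families CYP7, CYP8, CYP27 and CYP51 were left out, which removed 9 matching rows. The rule found 73 members among 42128 rows: 8 in CYP1, 37 in CYP2, 9 in CYP3, 6 in CYP4 and 13 in other families. The description matched except at 4 members, both CYP2D25 and both CYP2R1 loci, which are described as vitamin D 25-hydroxylases and matched by symbol. P450 genes that met neither condition, such as aromatase, were not members.

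Each group had 3 RNA-seq libraries of total RNA from liver tissue of trout labelled wild-type. The hypoxia group was kept for 1 month at a dissolved oxygen of 4.5 ± 0.1 mg/L and the other group is labelled control, with no oxygen level given. Age, sex and strain are not given in the labels. They also leave unsaid whether each replicate is another fish. The p-values therefore reflect the spread between these libraries alone, and that spread may be technical. The 6 small RNA libraries of the series were not used here.

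P450 enzymes hold a heme group, bind molecular oxygen and insert an oxygen atom into a substrate, with electrons passed to them mainly by NADPH-cytochrome P450 reductase in the endoplasmic reticulum. The liver is their main site. Members of CYP1, CYP2 and CYP3 oxidise foreign compounds, steroids and fatty acids, CYP4 enzymes hydroxylate fatty acids, and CYP26 enzymes break down retinoic acid. In fish, CYP1A is induced through the aryl hydrocarbon receptor and serves as a marker of exposure to planar aromatic pollutants.

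The libraries held 19060468 to 23152833 counts, of which 108033 to 163424 fell on P450 members. Along the first principal component of all tested genes, which held 43.4% of the variance, the hypoxia libraries lay at -34.1 to -25.4. Control replicate 1 lay at 9.47, between them and the other control libraries at 39.3 and 43.1. Several results that turn on control replicate 1 are therefore given with and without it. It was singled out from these same data as the control nearest to hypoxia, so calls gained without it are no separate support. Of the tested members, 52.2% had a level in control replicate 1 nearer to the hypoxia mean than to the other controls, against 48.3% of all tested genes. The labelled tissue was checked on 32 loci of hepatocyte markers, none of them at 0 in every library, which summed to 71781 to 78516 FPKM in hypoxia and 68602 to 70931 FPKM in control. Without the 2 alb1 loci the sums were 46226 to 50167 FPKM in hypoxia and 50044 to 51405 FPKM in control, and over the list 2 of 31 tested loci were higher and 0 lower, with a median log2 fold change of -0.11. FPKM is a level scaled for gene length and library size, so levels can be set beside each other between genes. The authors' FPKM did not follow their counts at every locus. At arnt2 (110506172) the hypoxia mean was 97.4% of control by FPKM, with a log2 fold change of -0.23 from counts. Marker calls in this paragraph are at an edgeR adjusted p under 0.05, which 3.39% of all genes tested passed as lower and 3.83% as higher. Red blood cell markers were lower in hypoxia, with 14 of 18 tested loci past the threshold and sums of 479 to 617 FPKM in hypoxia against 910 to 1244 FPKM in control, and 25 of their 48 loci at 0. Stellate cell markers passed the threshold at 4 of 12 tested loci, all lower, with sums of 171 to 255 FPKM in hypoxia against 266 to 343 FPKM in control, and none of their 15 loci at 0. Endothelial markers summed to 10.6 to 10.8 FPKM in hypoxia and 12.9 to 13.9 FPKM in control, with 1 of 5 tested loci lower, and leukocyte markers overlapped at 181 to 213 FPKM in hypoxia and 180 to 228 FPKM in control.

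P450 transcripts as a whole were lower in hypoxic liver. The summed level of the 73 members was 2470, 2427 and 2519 FPKM in the hypoxia libraries, against 2903, 2886 and 3056 FPKM in the control libraries. Every hypoxia sum lay below every control sum, and the hypoxia mean was 83.8% of the control mean. P450 members made up 0.467% ± 0.0078 of all FPKM in hypoxia and 0.570% ± 0.0189 in control (SD, n = 3 each). In bulk liver, fewer cells of a type and less RNA per cell cannot be told apart. Sums carry no test here.

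The families differed in direction. CYP3 summed to 300.0, 283 and 294 FPKM in hypoxia against 368, 435 and 497 FPKM in control, with all hypoxia libraries below all controls and a hypoxia mean at 67.4% of the control mean. CYP2, the family with the highest summed level, was at 1469, 1417 and 1410 FPKM in hypoxia and at 1747, 1810 and 1895 FPKM in control, again without overlap and at 78.8% of control. In CYP1 the order was the other way, with 262, 237 and 254 FPKM in hypoxia against 240, 124 and 128 FPKM in control, but control replicate 1 fell within the hypoxia range. CYP4 (465 ± 61.3 FPKM in hypoxia, 500 ± 19.1 FPKM in control) and the other families (31.4 ± 1.19 FPKM in hypoxia, 34.4 ± 2.53 FPKM in control; SD, n = 3 each) overlapped between the groups. Of all P450 FPKM, CYP1 held 10.2% ± 0.437 in hypoxia and 5.58% ± 2.32 in control, and CYP3 held 11.8% ± 0.286 in hypoxia and 14.7% ± 1.83 in control (SD, n = 3 each). Cyp2k5 and the CYP3 loci accounted for much of the lower total. The sum of the other 63 members was 92.3% of control, at 2053 ± 31.0 FPKM in hypoxia and 2224 ± 43.6 FPKM in control (SD, n = 3 each).

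**Figure D1:**
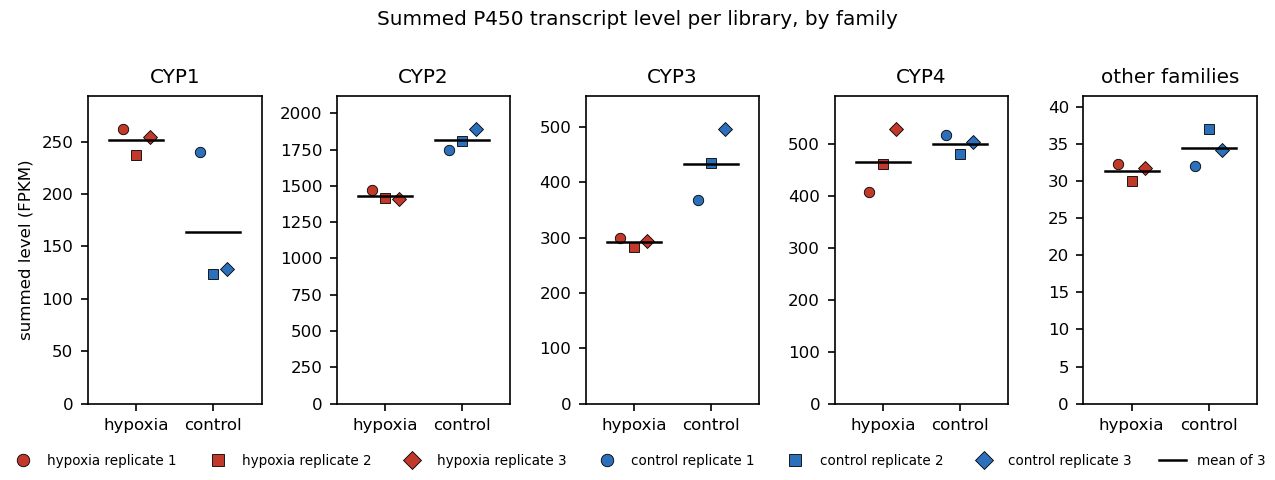
Summed level (FPKM, y axis from 0, a scale of its own in each panel) of the P450 members of each family in every library, hypoxia left and control right, with a line at the mean of 3. CYP2 and CYP3 sums do not overlap between the groups, and in CYP1 control replicate 1 lies at 240 FPKM beside hypoxia at 237 to 262 FPKM.

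Tests were made on the 46 members with a mean of at least 0.5 FPKM over all 6 libraries, using edgeR's quasi-likelihood test on counts with p-values adjusted over all 19365 genes tested. In that test 7 members passed the adjusted threshold of 0.05, all lower in hypoxia, and 0 passed as higher. DESeq2 found 2 higher members, and 950 higher genes among all 19365. Over all genes tested in edgeR, 7.22% passed in either direction, 3.39% as lower and 3.83% as higher. At an unadjusted p under 0.05 there were 18 lower and 4 higher members of 46, while over all genes tested 11.6% were lower and 12.1% higher at that level. The log2 fold change of hypoxia over control was negative for 36 of the 46, with a median of -0.29, against 9782 of 19365 genes and a median of -0.0046 over all genes tested. All 3 hypoxia libraries were below all 3 controls for 18 members and above them for 3, while over all genes tested these shares were 13.1% and 13.9%. Of those members, 11 below and 3 above did not pass the adjusted threshold.

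**Figure D2:**
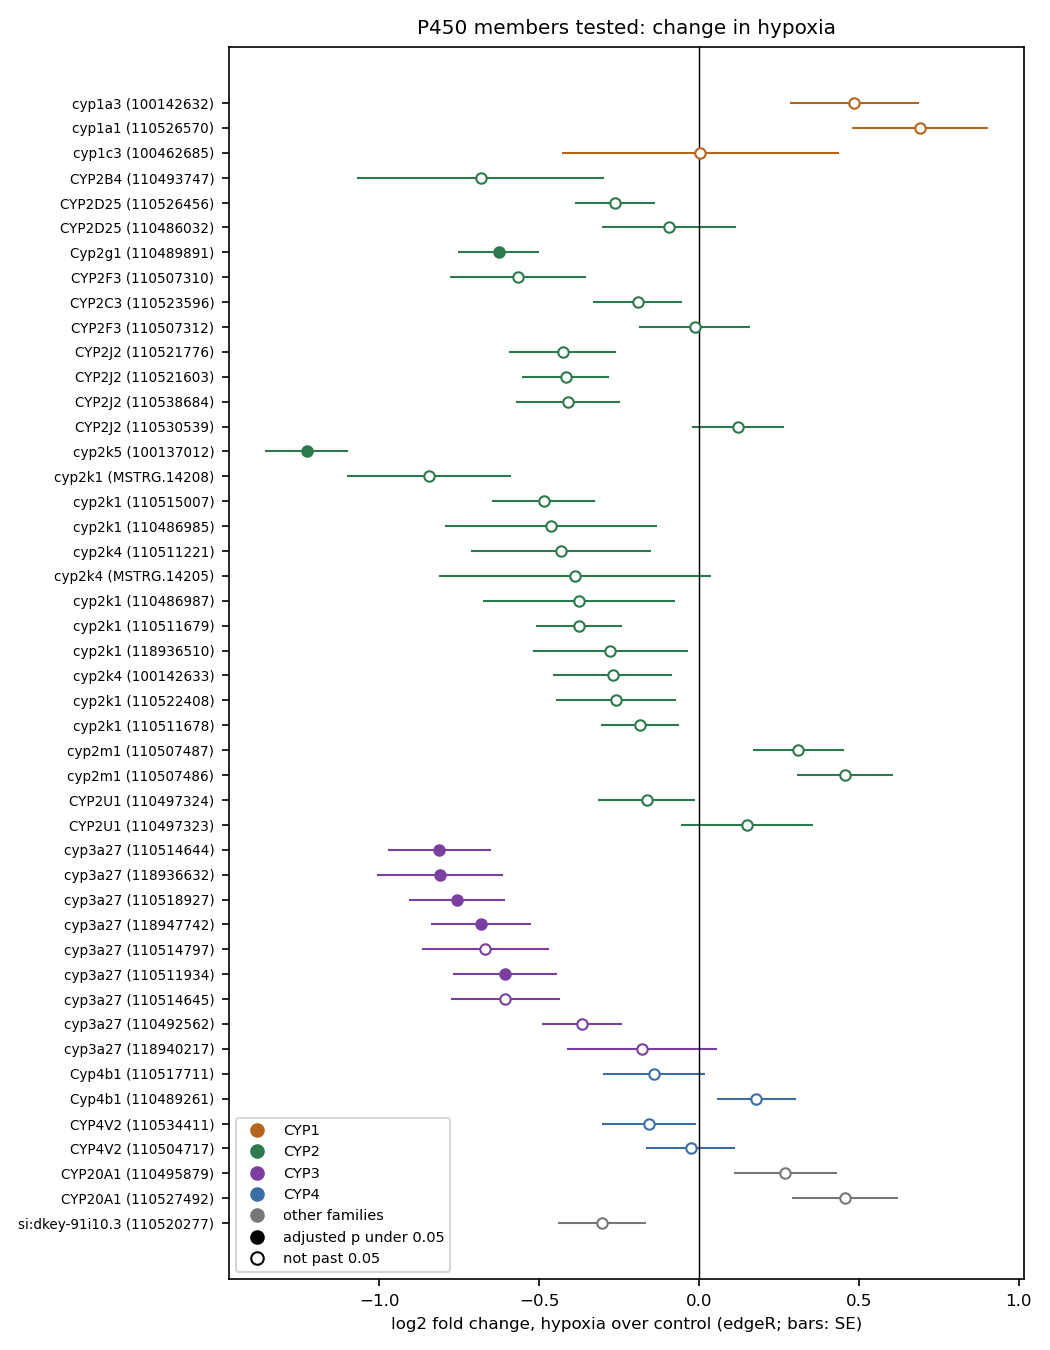
Log2 fold change of hypoxia over control (x axis, edgeR) with its SE for the 46 tested P450 members, ordered by family and subfamily, filled where the adjusted p is under 0.05. The 7 filled points all lie left of 0, 5 of them cyp3a27 loci, and both CYP1A loci and both CYP2M1 loci lie right of 0.

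Cyp2k5 showed the largest change of any tested member. The CYP2K subfamily is a fish group of P450 enzymes, and its trout member CYP2K1 hydroxylates fatty acids and activates aflatoxin. Cyp2k5 (gene 100137012) was at 129, 114 and 137 FPKM in hypoxia against 284, 276 and 312 FPKM in control. The groups were far apart, the highest hypoxia library being below the lowest control library by more than the whole range of either group. Its level fell by 1.23 on the log2 scale in hypoxia (SE 0.13, edgeR adjusted p = 0.0033), to 43.5% of the control mean, with 6609 to 20956 counts per library behind the levels. This call held with each library left out in turn, with edgeR adjusted p-values of 0.000614 to 0.0278.

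The remaining CYP2K loci moved less. Of the 16 members of the subfamily, 12 were tested, all 12 had a negative log2 fold change with a median of -0.38, and cyp2k5 was the 1 that passed. Without cyp2k5, the summed level of the subfamily was 344, 370.0 and 334 FPKM in hypoxia against 410.3, 413 and 454 FPKM in control. Those sums did not overlap, and the hypoxia mean was 82.1% of the control mean. Cyp2k1 (110511679), the second CYP2K locus by level, was at 139, 157 and 149 FPKM in hypoxia and 182, 185 and 197 FPKM in control, a log2 fold change of -0.37 (SE 0.13) that did not pass (edgeR adjusted p = 0.117). A locus called cyp2k1 but described as 2K3, an assembled locus without a gene number (MSTRG.14208), was at 4.24, 3.79 and 3.37 FPKM in hypoxia and 7.92, 6.89 and 5.44 FPKM in control. It had a log2 fold change of -0.84 (SE 0.26) with an edgeR adjusted p of 0.0694, and limma on log2(FPKM + 0.5) placed it past the threshold (adjusted p = 0.0371).

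Several CYP2K loci lie next to each other in the reference gene order of assembly USDA_OmykA_1.1. Gaps of at most 5 genes put 5 of them in 1 cluster and 6 in another. Cyp2k5 lay beside only 1 further member, a cyp2k1 locus (118965941) at 0.103 ± 0.0391 FPKM in hypoxia and 0.218 ± 0.0975 FPKM in control (SD, n = 3 each). In the cluster of 5, the highest locus was cyp2k1 (110511679), and in the cluster of 6 it was cyp2k1 (110511678), at 126, 133 and 125 FPKM in hypoxia against 145, 139 and 147 FPKM in control. Within the cluster of 6, cyp2k4 (110511221) varied between libraries of the same group, with 24.7, 39.6 and 19.5 FPKM in hypoxia and 31.0, 31.0 and 49.9 FPKM in control. That spread exceeds the difference between its group means, and it did not pass (edgeR adjusted p = 0.387).

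The CYP3 family was lower in hypoxia at nearly every locus. CYP3A enzymes are the main drug and steroid oxidases of vertebrate liver, and CYP3A27 is the form described from trout liver. All 9 members carry the symbol cyp3a27, 8 are described as 3A27 and 1 as 3A30, and all 9 were tested. In edgeR 5 of the 9 passed as lower, all 9 log2 fold changes were negative with a median of -0.67, and at 8 of 9 every hypoxia library was below every control library. Over all genes tested, 3.39% passed as lower and 13.1% had every hypoxia library below every control library. Reads may be split between the 8 loci of the same product name, so the counts over these loci may not be separate results.

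The locus of highest level, cyp3a27 (110514797), was at 86.8, 73.9 and 78.8 FPKM in hypoxia and 92.5, 124 and 148 FPKM in control. Its groups did not overlap, but control replicate 1 lay close to the hypoxia libraries, and its log2 fold change of -0.67 (SE 0.20) did not pass (edgeR adjusted p = 0.0654). This locus passed without control replicate 1 (log2 fold change -0.86, edgeR adjusted p = 0.00849). It did not pass with any other library left out (edgeR adjusted p up to 0.205). With all libraries kept, 110514797 passed in DESeq2 (adjusted p = 0.0140) and in edgeR with no filter on level (adjusted p = 0.0247). No other alternative with all libraries kept called it. Cyp3a27 (110511934) was at 79.7, 61.3 and 61.1 FPKM in hypoxia against 93.4, 89.0 and 120.1 FPKM in control. It fell by 0.61 on the log2 scale (SE 0.16, edgeR adjusted p = 0.0486), just inside the threshold. Cyp3a27 (110518927) was at 32.7, 28.3 and 29.8 FPKM in hypoxia against 43.0, 50.3 and 57.8 FPKM in control and fell by 0.76 on the log2 scale (SE 0.15, edgeR adjusted p = 0.0166). At both of these loci the groups did not overlap, and the control libraries spread more widely than the hypoxia libraries.

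A further 3 loci passed. Cyp3a27 (110514644) was at 18.6, 20.8 and 20.8 FPKM in hypoxia against 28.9, 35.0 and 39.9 FPKM in control, and fell by 0.81 on the log2 scale (SE 0.16, edgeR adjusted p = 0.0164). Cyp3a27 (118947742) was at 16.9, 21.2 and 20.8 FPKM in hypoxia and at 26.9, 34.7 and 31.3 FPKM in control, and fell by 0.68 on the log2 scale (SE 0.16, edgeR adjusted p = 0.0286). The locus of lowest level, cyp3a27 (118936632), was at 5.81, 3.66 and 4.44 FPKM in hypoxia and 6.29, 8.21 and 9.29 FPKM in control (log2 fold change -0.81, SE 0.20, edgeR adjusted p = 0.0344). In all 3 the groups did not overlap, with control replicate 1 the lowest control each time.

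Of the loci that did not pass, cyp3a27 (110514645) was at 16.5, 14.7 and 15.4 FPKM in hypoxia and 18.0, 24.3 and 27.03 FPKM in control (log2 fold change -0.60, SE 0.17, edgeR adjusted p = 0.0553). This locus passed without control replicate 1 (log2 fold change -0.78, edgeR adjusted p = 0.00453). It did not pass with any other library left out (edgeR adjusted p up to 0.173). With all libraries kept, 110514645 passed in DESeq2 (adjusted p = 0.0174) and in edgeR with no filter on level (adjusted p = 0.0294). No other alternative with all libraries kept called it. The 3A30 locus (110492562, symbol cyp3a27) was at 23.9, 25.4 and 25.1 FPKM in hypoxia against 30.7, 31.5 and 33.6 FPKM in control (log2 fold change -0.37, SE 0.13, edgeR adjusted p = 0.101). The exception to the pattern was cyp3a27 (118940217), with 19.1, 33.2 and 37.4 FPKM in hypoxia and 28.0, 38.7 and 30.3 FPKM in control. Its groups overlapped and its log2 fold change was -0.18 (SE 0.23, edgeR adjusted p = 0.695). It lies in 1 cluster of 4 neighbouring loci with 110514644, 110514645 and 110514797, whose log2 fold changes were -0.81, -0.60 and -0.67. When hypoxia replicate 1 was left out, the value for 118940217 was 0.07.

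**Figure D3:**
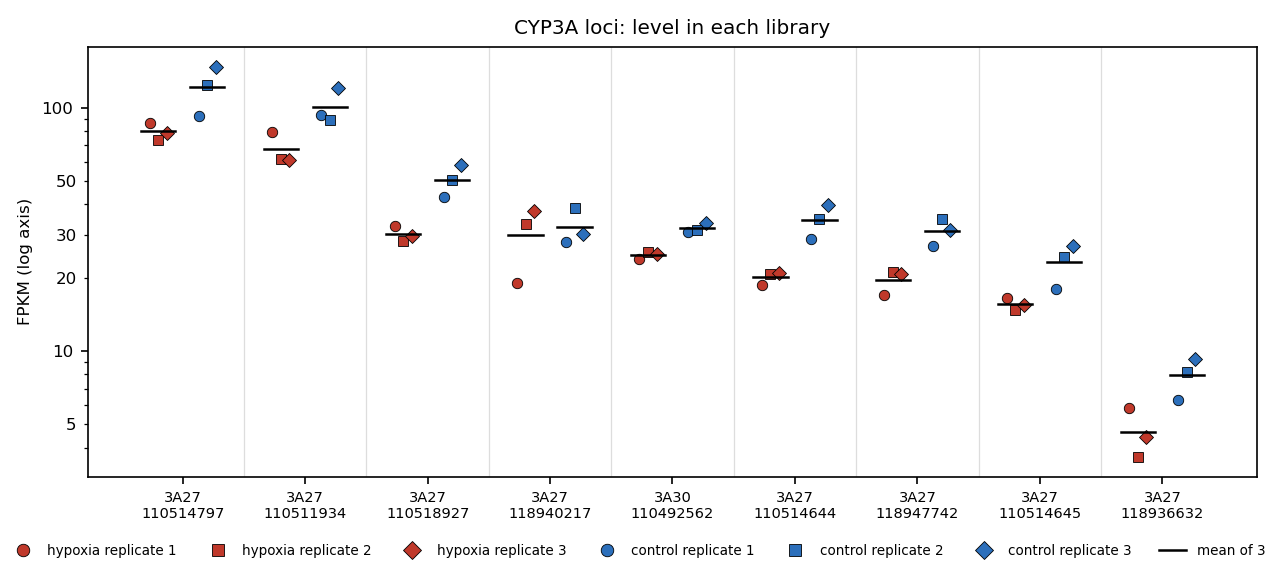
Level of the 9 CYP3A loci (FPKM, log axis) in every library, hypoxia left and control right at each locus, with a line at the mean of 3. Hypoxia libraries lie below control libraries at every locus except 118940217, and control replicate 1 (circle) is often the control nearest to hypoxia.

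Reads of near-identical copies may be split between them, so copies with the same product name were also summed before the test. The 8 loci of 3A27 summed to 276, 257 and 269 FPKM in hypoxia against 337, 404 and 463 FPKM in control. The groups did not overlap, and the sum fell by 0.62 on the log2 scale (SE 0.16, edgeR adjusted p = 0.0402). In the table with summed copies 7.19% of 19340 rows passed. Control replicate 1 affected these results. Without it the 3A27 sum had a log2 fold change of -0.76 (edgeR adjusted p = 0.00609), and with any other library left out the adjusted p was 0.115 to 0.128.

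The single calls behaved alike. Every call other than cyp2k5 was lost in 5 of the 6 fits with 1 library left out and was kept in the fit without control replicate 1. With all libraries kept, neither limma nor edgeR with a block for the replicate number called 110511934 or 118936632. Upper-quartile scaling did not call 110511934. In the fit without control replicate 1, 12 members were lower and 2 were higher, and in the other 5 fits cyp2k5 was the 1 member called. Over all 19365 genes tested, the fit without control replicate 1 called 1056 as lower and 1130 as higher. The other 5 fits called 361 to 496 genes in both directions together.

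In the CYP2F group, Cyp2g1 (110489891), whose description reads 2F3-like, was the other call outside CYP3. In mammals CYP2F enzymes are known from lung and CYP2G1 from olfactory tissue. Cyp2g1 was at 72.4, 72.5 and 78.2 FPKM in hypoxia against 105, 120.3 and 113 FPKM in control. The groups were clearly apart, and it fell by 0.63 on the log2 scale (SE 0.13, edgeR adjusted p = 0.0178), to 65.9% of the control mean. A further locus of this group was CYP2C3 (110523596), described as 2F2. It was at 81.3, 75.6 and 64.9 FPKM in hypoxia and 78.0, 81.9 and 89.3 FPKM in control. Its groups overlapped, and its log2 fold change of -0.19 (SE 0.14) did not pass (edgeR adjusted p = 0.447). Both loci with the symbol CYP2F3 were at low level: 110507310 had 7.39 ± 2.49 FPKM in hypoxia and 10.8 ± 0.477 FPKM in control, and 110507312 had 6.04 ± 1.39 FPKM in hypoxia and 5.96 ± 1.03 FPKM in control (SD, n = 3 each). The sum of the 3 loci described as 2F3, mostly Cyp2g1, fell by 0.59 on the log2 scale (SE 0.13, edgeR adjusted p = 0.0224). That call was kept without control replicate 1 (adjusted p = 0.00935) and lost with any other library left out (adjusted p = 0.0523 to 0.101). Grouping by symbol instead leaves Cyp2g1 out, and the 2 CYP2F3 loci then gave -0.34 with an edgeR adjusted p of 0.279.

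CYP2D25 (110526456), the member of highest level, is named after a pig vitamin D 25-hydroxylase. It was at 409, 432 and 426 FPKM in hypoxia and 500.4, 482 and 515 FPKM in control. The groups did not overlap, at 84.6% of the control mean, but the log2 fold change of -0.26 (SE 0.13) did not pass (edgeR adjusted p = 0.230). The CYP2J2 loci carry the name of a human epoxygenase of arachidonic acid. The highest of the 4, CYP2J2 (110521603), was at 127, 116 and 133 FPKM in hypoxia and 145, 177 and 170.5 FPKM in control, again without overlap (log2 fold change -0.42, SE 0.14, edgeR adjusted p = 0.0881). Without control replicate 1 this locus had -0.53 and an edgeR adjusted p of 0.0192. It did not pass with any other library left out (edgeR adjusted p up to 0.285).

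As sums of near-copies, 2D25, 2J2, 2K1, 2K3 and 2K4 had lower hypoxia means and did not pass. Among these the groups overlapped at 2K4 only. The 4 loci of 2J2 summed to 183 ± 13.0 FPKM in hypoxia and 230.3 ± 19.2 FPKM in control, with a log2 fold change of -0.36 (SD, n = 3 each; edgeR adjusted p = 0.124). Without control replicate 1 the 2J2 sum passed (log2 fold change -0.45, edgeR adjusted p = 0.0359). With any other library left out it did not (edgeR adjusted p = 0.187 to 0.356). The 6 loci of 2K1 gave -0.29 (edgeR adjusted p = 0.214), the 2 loci of 2D25 gave -0.26 (edgeR adjusted p = 0.230) and the 2 of 2K4 gave -0.42 (edgeR adjusted p = 0.380). The 2K3 pair was nearer the threshold, at 10.6 ± 1.63 FPKM in hypoxia and 16.0 ± 0.313 FPKM in control (SD, n = 3 each), with -0.53 and an edgeR adjusted p of 0.0563. That sum also passed without control replicate 1 (log2 fold change -0.60, edgeR adjusted p = 0.0339). Leaving out any other library gave an edgeR adjusted p of 0.073 to 0.185. The pair of 2U1, named after a human long-chain fatty acid hydroxylase, was at 6.31 ± 0.515 FPKM in hypoxia and 6.53 ± 0.453 FPKM in control (log2 fold change -0.09, edgeR adjusted p = 0.742).

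CYP2M1, a fatty acid hydroxylase of trout liver, accounted for 2 of the 4 tested CYP2 loci with a positive log2 fold change. The others were CYP2U1 (110497323, 0.15) and CYP2J2 (110530539, 0.12), at which the groups overlapped. Cyp2m1 (110507486) was at 155, 113 and 108 FPKM in hypoxia and 86.6, 91.5 and 91.2 FPKM in control. Its neighbour 110507487 was at 36.1, 32.2 and 27.5 FPKM in hypoxia and 23.8, 26.3 and 26.2 FPKM in control. At both loci every hypoxia library was above every control, with hypoxia replicate 1 the highest. In edgeR they did not pass, with log2 fold changes of 0.46 (SE 0.15, adjusted p = 0.0894) and 0.31 (SE 0.14, adjusted p = 0.214), and their sum gave 0.43 (adjusted p = 0.0993). DESeq2 placed 110507486 past the threshold (adjusted p = 0.048). No other alternative did, with adjusted p = 0.117 in limma on log2(FPKM + 0.5) and 0.0812 to 0.316 in edgeR with 1 library left out. Without hypoxia replicate 1 its log2 fold change was 0.30. Another locus of the same cluster (110507485) and one elsewhere (110503307) were at 0 in all libraries.

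CYP2B4 (110493747), which bears the name of a rabbit drug oxidase, had the largest SE among the CYP2 loci above 10 FPKM. It was at 31.3, 16.0 and 10.9 FPKM in hypoxia and 16.5, 44.9 and 29.5 FPKM in control. The groups overlapped, and its log2 fold change of -0.68 had an SE of 0.38 (edgeR adjusted p = 0.313).

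CYP1 transcripts were higher in hypoxia than in 2 of the 3 control libraries. Cyp1a1 (110526570) was at 161, 146 and 155 FPKM in hypoxia against 140, 72.5 and 71.5 FPKM in control. The hypoxia libraries agreed closely and all lay above the controls, of which replicate 1 was nearly as high as hypoxia. The log2 fold change of 0.69 (SE 0.21) did not pass in edgeR (adjusted p = 0.0717), but passed without control replicate 1 (log2 fold change 1.04, adjusted p = 0.00119). With any other library left out it did not pass (log2 fold change 0.55 to 0.71, edgeR adjusted p = 0.151 to 0.209). Cyp1a1 also passed as higher in DESeq2 (adjusted p = 0.0136) and in the authors' deposited table (FDR 0.017).

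Cyp1a3 (100142632), the second CYP1A gene of trout, also had control replicate 1 apart from the other controls. It was at 101, 90.7 and 98.9 FPKM in hypoxia and 99.2, 50.3 and 56.5 FPKM in control, so that control replicate 1 lay within the hypoxia range. The log2 fold change was 0.49 (SE 0.20, edgeR adjusted p = 0.173), and 0.80 without control replicate 1 (edgeR adjusted p = 0.00428). With any other library left out cyp1a3 did not pass (log2 fold change 0.33 to 0.51, edgeR adjusted p = 0.270 to 0.416). Cyp1c3 was near the detection limit, at 0.58 ± 0.139 FPKM in hypoxia and 0.574 ± 0.311 FPKM in control (SD, n = 3 each). The CYP1B1 loci, cyp1c1, cyp1c2 and a second cyp1a1 locus (110525405) were at 0 or close to it, below the level tested.

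**Figure D4:**
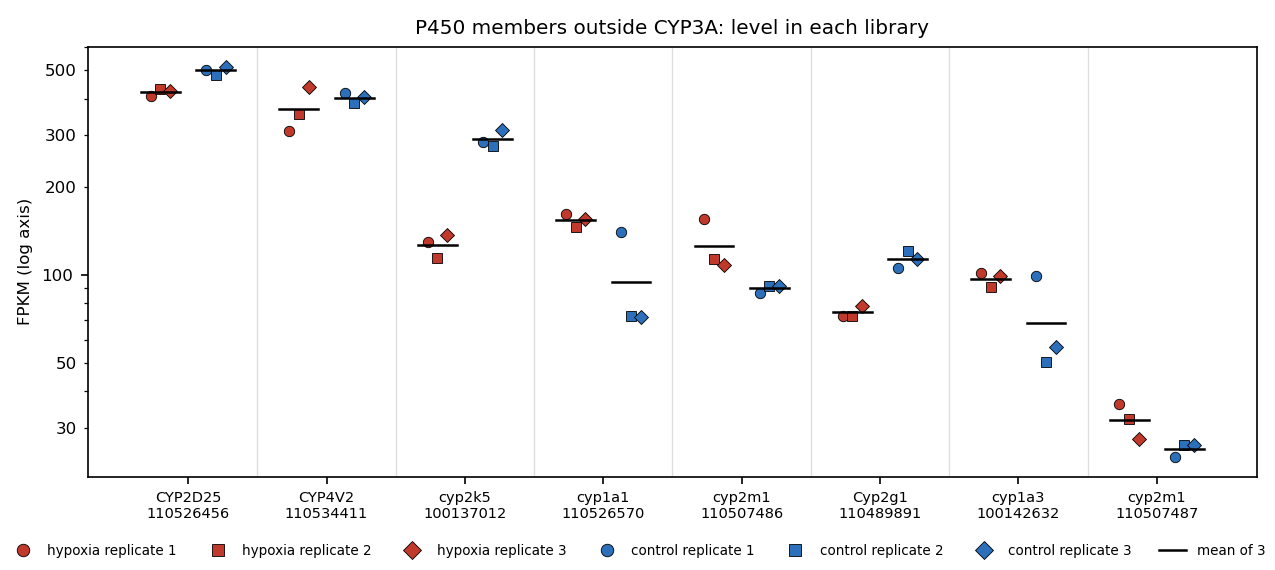
Level (FPKM, log axis) of 8 P450 members outside CYP3A in every library, hypoxia left and control right, with a line at the mean of 3. Cyp2k5 and Cyp2g1 are lower in all hypoxia libraries, both cyp2m1 loci are higher in all hypoxia libraries, and control replicate 1 (circle) stands beside hypoxia in cyp1a1 and cyp1a3.

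The CYP4 differences lay within the spread between libraries. CYP4V2 (110534411) is named after a human fatty acid omega-hydroxylase and had the second highest level of all members. It was at 309, 354 and 438 FPKM in hypoxia and 420, 386 and 404 FPKM in control, a hypoxia range that enclosed the control range (log2 fold change -0.16, SE 0.15, edgeR adjusted p = 0.570). The other CYP4V2 locus (110504717) was at 40.9, 49.6 and 43.7 FPKM in hypoxia and 43.2, 47.1 and 45.0 FPKM in control (log2 fold change -0.03, SE 0.14, edgeR adjusted p = 0.935). The Cyp4b1 loci 110517711 and 110489261 had log2 fold changes of -0.14 (SE 0.16, edgeR adjusted p = 0.648) and 0.18 (SE 0.12, edgeR adjusted p = 0.418), and their sum gave -0.02 (edgeR adjusted p = 0.963). The 4V2 sum gave -0.14 (edgeR adjusted p = 0.610). The CYP4F3 loci, named after a human leukotriene hydroxylase, were below the level tested.

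Among the other families, the steroid-forming CYP11B (110534298) and cyp17a1 (100137017) were at 0 in every library, as were 10 of 13 loci of the steroid cell marker list, cyp17a1 among them. A locus described only as cytochrome P450 (110520277, symbol si:dkey-91i10.3) had the highest level of the group, at 23.1, 20.6 and 24.2 FPKM in hypoxia and 24.2, 30.1 and 28.1 FPKM in control (log2 fold change -0.30, SE 0.14, edgeR adjusted p = 0.209). CYP20A1, an orphan P450 without a settled substrate, was at 5.21, 5.30 and 4.25 FPKM in hypoxia and 4.29, 3.37 and 3.02 FPKM in control at 110527492. At 110495879 it was at 3.75, 3.96 and 3.13 FPKM in hypoxia and 3.21, 3.11 and 2.58 FPKM in control. The groups overlapped at each, and the log2 fold changes of 0.46 (SE 0.17) and 0.27 (SE 0.16) did not pass (edgeR adjusted p = 0.120 and 0.344). The sum of the pair gave 0.37 (edgeR adjusted p = 0.164).

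Of the 27 members not tested, 9 were at 0 in all libraries, and the highest mean level was 0.277 FPKM, that of cyp26b1 (110531356). CYP26B1 clears retinoic acid, the active form of the vitamin A that hepatic stellate cells store. Cyp26b1 was at 0.193, 0.137 and 0.117 FPKM in hypoxia against 0.293, 0.531 and 0.392 FPKM in control, from 13 to 68 counts per library. All hypoxia libraries were below all controls, and when genes of every level were tested its log2 fold change was -1.48 (edgeR adjusted p = 0.0117). The authors' deposited table gives -1.44 with an FDR of 0.0235. The stellate cell marker sums given above were lower in the same libraries, and their part in this difference was not tested. Both CYP2R1 loci, described as vitamin D 25-hydroxylase, were at 0.153 FPKM or less.

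Rows with an FDR under 0.05 made up 3.32% of the 42128 rows in the authors' deposited table. Among the members these were cyp1a1 as higher, and cyp2k5, Cyp2g1, cyp26b1 and 7 of the 8 loci of 3A27 as lower. That table gave cyp2k5 a log2 fold change of -1.20. The 3A27 locus it left out was 118940217 (FDR 0.912).

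The genes that P450 enzymes depend on were described from a list of electron donors, heme enzymes, epoxide hydrolases and nuclear receptors. Of 90 listed loci 70 were tested, 7 were lower and 1 was higher, and the median log2 fold change was -0.09. These counts stand beside the 3.39% of all genes called lower and 3.83% called higher. With 1 library left out, the calls of por, alas1, HMOX2, hmox2b and rxrba held in 1 of 6 fits, the one without control replicate 1. With all libraries kept, limma did not call alas1, HMOX2, hmox2b, rxrba, Pgrmc1 or pparab, and upper-quartile scaling did not call HMOX2 (adjusted p = 0.0506) or hmox2b. The replicate block did not call HMOX2, hmox2b, rxrba or Pgrmc1. HMOX2 was also not called by edgeR with no filter on level (adjusted p = 0.0527).

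Por (110507350), the NADPH-cytochrome P450 reductase that passes electrons to these enzymes, was at 16.2, 18.7 and 18.5 FPKM in hypoxia against 23.3, 30.0 and 31.2 FPKM in control. The groups did not overlap, and it fell by 0.69 on the log2 scale (SE 0.16, edgeR adjusted p = 0.0296). Its copy porb (110503516) was at 27.9, 27.1 and 29.4 FPKM in hypoxia and 29.8, 48.8 and 60.6 FPKM in control. Control replicate 1 lay next to hypoxia, and the log2 fold change of -0.73 (SE 0.22) did not pass (edgeR adjusted p = 0.0715). Porb passed without control replicate 1 (log2 fold change -0.98, edgeR adjusted p = 0.00241). It did not pass with any other library left out (edgeR adjusted p up to 0.230). With all libraries kept, porb passed in DESeq2 (adjusted p = 0.0140) and in edgeR with no filter on level (adjusted p = 0.0235). A further reductase locus, POR (110537584), was at 3.26 ± 0.193 FPKM in hypoxia and 3.06 ± 0.510 FPKM in control (SD, n = 3 each). Its groups overlapped, with a log2 fold change of 0.07 (edgeR adjusted p = 0.811). The cytochrome b5 and ferredoxin loci, which are the other electron carriers of the list, did not pass.

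Alas1 (110528663), the first and rate-limiting enzyme of heme synthesis in liver, was at 45.6, 45.3 and 51.9 FPKM in hypoxia against 60.8, 96.7 and 82.4 FPKM in control. It fell by 0.78 on the log2 scale (SE 0.18, edgeR adjusted p = 0.0280), with every hypoxia library below every control. A second locus, Alas1 (110492405), was at 4.93 ± 0.351 FPKM in hypoxia and 7.44 ± 1.37 FPKM in control (SD, n = 3 each; log2 fold change -0.57, edgeR adjusted p = 0.0567; without control replicate 1, -0.63 and 0.0421). This second locus did not pass with any other library left out (edgeR adjusted p up to 0.209). With all libraries kept, it passed in DESeq2 (adjusted p = 0.0429) and in edgeR with no filter on level (adjusted p = 0.0419). The red blood cell marker sums given above were lower in the same libraries, and their part in this difference was not tested. Heme oxygenase, which breaks heme down, was lower at HMOX2 (110512532; 9.71 ± 0.210 FPKM in hypoxia, 13.3 ± 0.898 FPKM in control; SD, n = 3 each; log2 fold change -0.47, edgeR adjusted p = 0.0427). It was also lower at hmox2b (110487001; log2 fold change -0.59, edgeR adjusted p = 0.0454), where the groups overlapped. The locus hmox (110485518), described only as heme oxygenase, varied between controls. It was at 11.5, 21.1 and 9.34 FPKM in hypoxia and 25.6, 5.20 and 3.53 FPKM in control, control replicate 1 being the highest of all libraries.

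The 1 partner that passed as higher was Pgrmc1 (110533597), a heme-binding membrane protein that associates with P450 enzymes. It was at 19.8, 19.1 and 15.6 FPKM in hypoxia against 11.9, 12.9 and 11.8 FPKM in control (log2 fold change 0.55, SE 0.14, edgeR adjusted p = 0.0400). The groups did not overlap, but the call was lost in 5 of 6 fits with 1 library left out (without control replicate 1, edgeR adjusted p = 0.0576). Another pgrmc1 locus of higher level (100136158) was at 110.4 ± 20.4 FPKM in hypoxia and 115.3 ± 23.6 FPKM in control (SD, n = 3 each), with overlapping groups. A Pgrmc1 locus of lower level (110502902) was at 2.91 ± 1.08 FPKM in hypoxia and 1.31 ± 0.644 FPKM in control (SD, n = 3 each). Its groups overlapped, and its log2 fold change of 1.17 (SE 0.39) did not pass (edgeR adjusted p = 0.0926). It passed in DESeq2 (adjusted p = 0.0403), in edgeR with no filter on level (adjusted p = 0.046) and without control replicate 1 (edgeR adjusted p = 0.0323).

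Among the regulators, no aryl hydrocarbon receptor or arnt locus passed. Arnt is the partner of this receptor and also of the hypoxia-inducible factors. Ahr2 (110527531) was at 5.16 ± 0.449 FPKM in hypoxia and 4.98 ± 0.348 FPKM in control, and arnt (100136759) at 5.86 ± 0.722 FPKM in hypoxia and 6.75 ± 0.556 FPKM in control (SD, n = 3 each). The pregnane X receptor nr1i2 (100136707), which drives CYP3A in mammals, was at 1.486, 1.495 and 1.773 FPKM in hypoxia and 1.84, 1.05 and 1.15 FPKM in control, and these ranges overlapped. Among the tested loci of its dimer partner RXR, only rxrba (110506642) passed. It fell by 0.48 on the log2 scale (15.2 ± 0.172 FPKM in hypoxia, 20.9 ± 1.05 FPKM in control; SD, n = 3 each; edgeR adjusted p = 0.0388). The other tested RXR loci had log2 fold changes of -0.33 to 0.20, with rxraa at -0.14 (110509348) and 0.11 (100136128).

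Nr0b2 (110496393), a nuclear receptor that represses other receptors, was at 42.8, 46.9 and 57.3 FPKM in hypoxia against 77.3, 97.6 and 71.0 FPKM in control. It fell by 0.76 on the log2 scale without overlap between the groups (SE 0.16, edgeR adjusted p = 0.0212). The other tested loci of this receptor did not pass. Their log2 fold changes were -0.43 (110488188), 0.27 (110518255) and -0.28 (nr0b2a), with edgeR adjusted p = 0.14, 0.43 and 0.72. Pparab (100505415), a fatty acid receptor that drives CYP4A genes in mammals, fell by 0.68 on the log2 scale (4.38 ± 0.762 FPKM in hypoxia, 6.49 ± 0.933 FPKM in control; SD, n = 3 each; edgeR adjusted p = 0.0190). The PPARA locus of higher level (110521393) was at 26.4, 22.4 and 25.6 FPKM in hypoxia and 25.6, 13.7 and 8.94 FPKM in control. Control replicate 1 lay within the hypoxia range there, as in cyp1a3, and the log2 fold change of 0.77 did not pass (edgeR adjusted p = 0.115; without control replicate 1, 1.23 and 0.00266). This PPARA locus did not pass with any other library left out (edgeR adjusted p up to 0.280). With all libraries kept, it passed as higher in DESeq2 (adjusted p = 0.0286). It also passed in edgeR with no filter on level (adjusted p = 0.0389) and with the replicate block (adjusted p = 0.0444). The calls of Nr0b2 and pparab were each lost in 3 of 6 fits with 1 library left out.

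**Figure D5:**
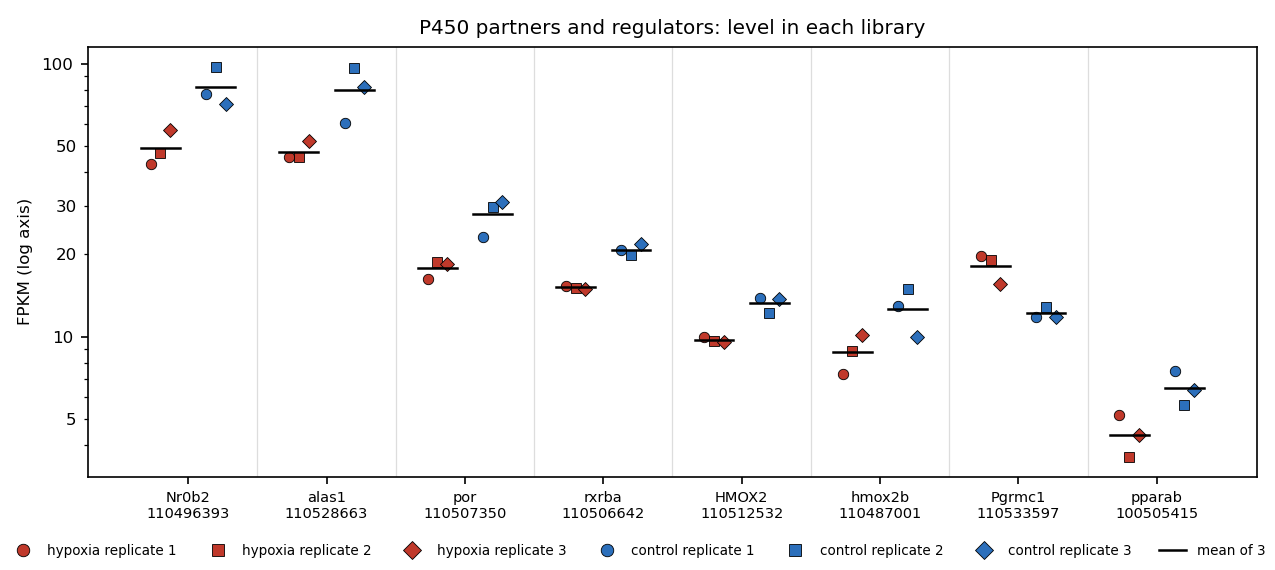
Level (FPKM, log axis) of 8 partner and regulator genes of P450 enzymes in every library, hypoxia left and control right, with a line at the mean of 3. These are the 8 listed genes past the threshold: Pgrmc1 is higher in all hypoxia libraries, the other 7 have lower hypoxia means, and hmox2b alone among them shows overlapping groups.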

How the data were processed

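Trizol was used on flash-frozen liver to obtain total RNA, per the labels' protocols. The deposited table holds raw counts per gene, FPKM values, and the authors' log2 fold changes, p-values and FDR, per the file headers. The submitters' processing notes name TopHat2 2.1.1 and Bowtie2 2.2.8. No coordinates are printed, because the genome build is not given in the sources used here, and neither are the counter and its handling of reads that match several copies. Symbols follow the file, and in 9 rows symbol and description differ, counting 110520277, which is described only as cytochrome P450. Of the members 71 matched the reference gene table (USDA_OmykA_1.1, used for names and neighbours only) and 2 are assembled loci.

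Members and lists were chosen with earlier results of these data known. Counts were tested with edgeR 4.0.16 in R 4.3.3 (quasi-likelihood, TMM, two-sided, group only, Benjamini-Hochberg over all genes). The SE equals the unshrunken log2 fold change, without its sign, over the root of edgeR's F. The code was tested on simulated data. Genes below a mean of 0.5 FPKM were left out. Alternatives used DESeq2 1.42.0, limma 3.58.1, other filters and scalings, and a replicate block. Near-copies were summed by product name where at least 2 loci were tested. Named are members past the threshold, the 3 of highest level per family, each near-copy sum, and partners past the threshold. Others were chosen after their values were seen. The 3 libraries per group limit the precision. No library repeats another, since replicate pairs gave a chi-square of 9.78 to 23.0 times its degrees of freedom.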

Additional observations from a re-analysis of the deposited data

How the results depend on the processing

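Cyp2k5 was past the threshold as lower in every alternative run. With 1 library left out the lower members numbered 1 to 12, the higher members 0 to 2, all genes past the threshold 361 to 2186, and near-copy sums past it 0 to 4, the upper value in each case without control replicate 1. Fewer libraries were tested in those fits. Higher members numbered 2 in DESeq2, 1 with no filter on level and 1 with the replicate block, and the cause was not tested. Over all genes the higher calls were 950 of 19365 in DESeq2, 985 of 34217 with no filter and 555 of 19365 with the block. Limma called 826 genes with a pseudocount of 0.5 and 771 with 0.1, against 1398 in edgeR, and again the cause was not tested. Lower members ranged from 5 (replicate block) to 10 (no filter) in the alternatives that kept all libraries. Over all genes, 491 of 19365 were lower with the block and 864 of 34217 with no filter. With the replicate block 1 near-copy sum passed, since 3A27 then had an adjusted p of 0.0586 (log2 fold change -0.60). Same-numbered libraries did not deviate together (correlations of -0.0613, 0.0288 and -0.0381). With 3 libraries per group this cannot decide whether the numbers mark pairs, which the labels leave unsaid. Summing by symbol, chosen after seeing the data, left 1 sum past the threshold. The log2 ratio of the CYP2 sum was -0.34 from FPKM and -0.40 from library-scaled counts, and that of the other families was 0.31 without the member of highest level, against -0.14 with it. Some changes that did not pass changed sign when 1 library was left out: cyp1c3 (-0.32 to 0.52), CYP2D25 at 110486032 (-0.31 to 0.13), cyp2k4 at MSTRG.14205 (-0.67 to 0.021), cyp3a27 at 118940217 (-0.34 to 0.0715), CYP2F3 at 110507312 (-0.20 to 0.0894), Cyp4b1 at 110517711 (-0.28 to 0.0086), CYP4V2 at 110504717 (-0.14 to 0.0505) and the 4B1 sum (-0.10 to 0.0895). CYP2F3 at 110507312 was also 0.0105 under upper-quartile scaling and 0.0092 and 0.0093 in the limma fits. Grouping copies by protein identity was not run. Members with few counts, such as cyp26b1, were limited by depth.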
